A study of Mus musculus with 2 samples.

Results

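The Mir17hg cluster, which runs from miR-17 to miR-92a, is a group of 6 microRNA (miRNA) genes that lie in 1 non-coding host transcript, Mir17hg, on mouse chromosome 14. The genes were taken by name from the list Mir17, Mir18, Mir19a, Mir20a, Mir19b-1 and Mir92-1, and all 6 were found among the 1973 miRNA genes of the deposited tables. Their levels were read in small RNA libraries from the forebrain of B6NCrl mouse embryos aged 14.5 days, when cortical neurons are being born. B6NCrl is an inbred strain, and no transgene, treatment or further group is named. There were 2 libraries, numbered as biological replicates 1 and 2, each described as 1 forebrain and collected on different days. The labels also give the sex as pooled and 1 donor identifier for both, so the SDs given here measure the spread between these 2 libraries, part of which may be technical. With 1 group there was no test between conditions, and the results below are levels, their order, and the difference between the libraries.

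The members of the cluster are cut from a single primary transcript by the enzyme Drosha and trimmed by Dicer, and each mature miRNA then guides an Argonaute protein to messenger RNAs through its seed, bases 2 to 8. Transcription of the host gene is known to be driven by MYC and E2F factors in dividing cells. In the developing cortex the cluster is known for supporting the expansion of neural progenitors. Known targets of its miRNAs include the messenger RNAs of the cell cycle inhibitor Cdkn1a and of the cell death gene Bcl2l11.

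The mature sequences are shown first because the seeds divide the 6 genes into 4 classes, by which the levels are then added up. Sequences are from RefSeq on mm10, where all 6 members and the 9 genes of their paralogue clusters matched by symbol. They are written 5′ to 3′ with the seed in capitals. The arm shown is the one that gives each family its name. The deposited counts belong to the whole hairpin, so the arms were not separated.
miR-17-5p: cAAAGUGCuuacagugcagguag
miR-20a-5p: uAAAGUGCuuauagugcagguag
miR-18a-5p: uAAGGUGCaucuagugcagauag
miR-19a-3p: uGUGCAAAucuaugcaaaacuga
miR-19b-3p: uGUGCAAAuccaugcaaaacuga
miR-92a-3p: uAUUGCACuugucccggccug
Mir17 and Mir20a share the seed AAAGUGC, and their mature miRNAs differ at 2 of 23 bases, C1U and C12U from miR-17-5p to miR-20a-5p, counted from the 5′ end. The miR-18a seed AAGGUGC differs from that of miR-17 by A4G at the same positions. Mir19a and Mir19b-1 share the seed GUGCAAA and differ at 1 base, U11C. Mir92-1 has the seed AUUGCAC. In the 3 members named after their 5′ arm the mature miRNA lies at the start of the hairpin, and in the 3 named after their 3′ arm at its end.

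Whether a read can be placed at 1 locus bears on every count here, because the tables list reads that matched several places as a total of their own, outside the genes. The rule by which a read was put in that total is not stated. Each member's hairpin was therefore compared with the 2202 miRNA hairpins of GENCODE M21 on both strands. Mir19b-1 and Mir92-1 shared 20 bases or more with another hairpin, and the other 4 members did not. The hairpins of these 2 genes are shown with those of their copies on the X chromosome, with the longest shared run in capitals.
Mir19b-1: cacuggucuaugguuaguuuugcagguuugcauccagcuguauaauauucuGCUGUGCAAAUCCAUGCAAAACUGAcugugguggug
Mir19b-2: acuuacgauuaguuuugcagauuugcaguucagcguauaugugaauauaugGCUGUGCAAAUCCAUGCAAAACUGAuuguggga
Mir92-1: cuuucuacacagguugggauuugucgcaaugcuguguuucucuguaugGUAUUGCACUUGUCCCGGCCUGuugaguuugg
Mir92-2: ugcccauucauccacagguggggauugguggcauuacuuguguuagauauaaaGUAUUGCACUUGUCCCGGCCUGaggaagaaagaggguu
The run shared by Mir19b-1 and Mir19b-2 was 25 bases long and held the whole of miR-19b-3p, which has 23. That shared by Mir92-1 and Mir92-2 was 22 bases long and held the whole of miR-92a-3p, which has 21. A read that starts at the first base of miR-19b-3p matches both hairpins until it is 24 bases long, and one that starts at miR-92a-3p until it is 22. Read from its own first base, miR-18a-5p matched no other hairpin from 18 bases on, and miR-17-5p, miR-19a-3p and miR-20a-5p matched none at 15, the shortest length searched. A read that lies wholly within the shared run matches both loci, and would be missing from the counts of both genes if it went to the multi-mapping total. How many such reads there were was not tested, and the search covered annotated hairpins, not the genome.

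On mm10 the host gene Mir17hg (ENSMUSG00000089726.2) lies at chr14:115042879-115046727 on the plus strand, and all 6 hairpins lie in its exon 2. Mir17 (ENSMUSG00000065508.1) comes first, at chr14:115043671-115043754. It is followed by Mir18 (ENSMUSG00000065403.1) at chr14:115043851-115043946 and Mir19a (ENSMUSG00000065416.1) at chr14:115044000-115044081. Then come Mir20a (ENSMUSG00000065442.1) at chr14:115044157-115044263 and Mir19b-1 (ENSMUSG00000076256.1) at chr14:115044305-115044391. Mir92-1 (ENSMUSG00000076062.1) comes last, at chr14:115044427-115044506. The 6 hairpins span 836 bases, with gaps of 35 to 96 bases between them. They are 80 to 107 bases long, and their predicted minimum free energies ran from -38.7 kcal/mol (Mir19a) to -29.2 kcal/mol (Mir18).

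The libraries held 18598385 reads in replicate 1 and 20638071 in replicate 2. Reads on the strand of a miRNA gene numbered 7080317 and 7946585, and levels are given as CPM, the count per 1000000 of these. Multi-mapping reads made up 43.3% and 42.2% of the libraries. Of the markers of neural tissue, 11 of 12 neuronal genes and 3 of 3 progenitor genes had 10 or more counts in both libraries. A further progenitor gene of the list was not among the 1973 genes. The highest neuronal gene was Mir137 at 7614 ± 481 CPM, and the highest progenitor gene Mir92b at 3097 ± 439 CPM (SD, n = 2). Other markers of both lists share 20 bases or more with another hairpin, which these 2 do not. Reads of such markers may be missing from their counts, so the order among markers is uncertain. Their number was not tested. Markers of other cell types were present as well, with Mir126a of endothelium highest at 22234 ± 185 CPM.

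The 6 genes together held 383323 counts in replicate 1 and 344166 in replicate 2. That was 5.41% of the miRNA counts in replicate 1 (95% Wilson interval 5.40 to 5.43) and 4.33% in replicate 2 (4.32 to 4.35), or 4.87% ± 0.766 (SD, n = 2). These intervals and those below cover counting error only, since reads without molecular identifiers include PCR copies. In bulk tissue, fewer cells with a miRNA and less of it per cell cannot be told apart. All 6 genes had 10 or more counts in both libraries, and none had a count on the opposite strand.

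Mir17 and Mir20a, whose shared seed is the best-known one of the cluster, were the highest members. Mir17 had 249739 and 223868 counts in replicates 1 and 2, or 35272 and 28172 CPM. Mir20a had 89255 and 79568 counts, or 12606 and 10013 CPM. Both libraries placed the pair on top, and it held 88.3% of the cluster's counts.

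Mir18, whose product miR-18a is known to target the matrix protein gene Ccn2, came next below them. It had 31083 and 29924 counts, or 4390 and 3766 CPM. Mir92-1, which gives rise to miR-92a, followed with 12882 and 10482 counts, or 1819 and 1319 CPM. Both libraries of each of these 4 members lay wholly above those of the next.

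The genes of the miR-19 seed were far below the rest. Mir19a had 285 and 256 counts, or 40.3 and 32.2 CPM. Mir19b-1 had 79 and 68 counts, or 11.2 and 8.56 CPM. Both were above the floor of 3 counts, which is 0.424 CPM in replicate 1 and 0.378 CPM in replicate 2. Together they held 0.00461% ± 0.000752 of the miRNA counts (SD, n = 2). Mir19a and Mir19b-1 are each flanked by members that stood at least 1000 CPM in both libraries. The assigned counts thus did not follow the order along the transcript. Reads within the run that Mir19b-1 shares with Mir19b-2 may be missing from its counts, and their number was not tested. The mature miRNA of Mir19a occurs in no other annotated hairpin.

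**Figure D1:**
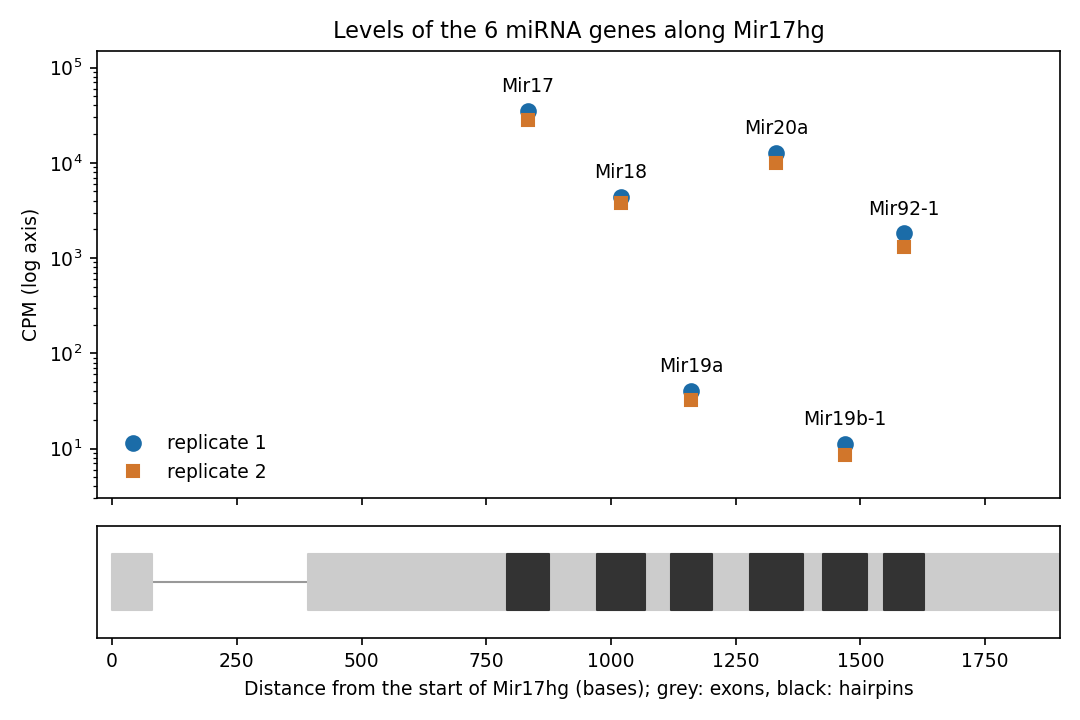
CPM on a log axis for each member in replicate 1 (circles) and replicate 2 (squares), at its distance in bases from the start of Mir17hg, with the exons in grey and the hairpins in black below (exon 2 runs on past the right edge). Mir19a and Mir19b-1 lie at 8.56 to 40.3 CPM between members at 1319 to 35272 CPM. Reads within the runs that Mir19b-1 and Mir92-1 share with other hairpins may be missing.

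The order of the members by assigned counts was the same in both libraries, and no neighbours in it overlapped. Reads within the runs that Mir92-1 and Mir19b-1 share with other hairpins may be missing, so the places of these 2 genes and their folds are uncertain. The number of such reads was not tested. Mir17 stood 2.80-fold above Mir20a in replicate 1 and 2.81-fold above it in replicate 2. Mir20a stood 2.87-fold and 2.66-fold above Mir18, and Mir18 stood 2.41-fold and 2.85-fold above Mir92-1. The step from Mir92-1 down to Mir19a was the widest, at 45.2-fold and 40.9-fold. Mir19a stood 3.61-fold and 3.76-fold above Mir19b-1. From the highest to the lowest member the difference was 3161-fold in replicate 1 and 3292-fold in replicate 2. Counts were not divided by length, since the labels give a size range under 30 and the mature miRNAs shown above have 21 to 23 bases. Per 100 bases of hairpin, the order stayed as it was, from 37764 CPM for Mir17 to 11.3 CPM for Mir19b-1.

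The make-up of the cluster was set beside its sum in each library. Mir17 made up 65.2% of the cluster's counts in replicate 1 and 65.0% in replicate 2. Mir20a made up 23.3% and 23.1%, and Mir18 8.11% and 8.69%. Mir92-1 made up 3.36% and 3.05%. Mir19a held 0.0743% and 0.0744%, and Mir19b-1 0.0206% and 0.0198%. Mir17 and Mir20a thus held nearly the same shares in both libraries, while Mir18 held more and Mir92-1 less of the cluster in replicate 2. The sum of the 6 genes differed 1.25-fold.

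Among all miRNA genes Mir17 ranked number 6 by mean CPM, Mir20a 16, Mir18 42, Mir92-1 73, Mir19a 246 and Mir19b-1 292. Next above and below Mir17 stood Mir100 (34407 ± 4069 CPM) and Mir130a (29797 ± 3847 CPM). Mir20a lay between Mir93 and Mir30a, and Mir18 between Mir23a and Mir21a. Mir92-1 lay between Mir1983 and Mir431, Mir19a between Mir26a-2 and Mir96, and Mir19b-1 between Mir218-1 and Mir3097. The ranges of the 2 libraries overlapped for every member and each of these neighbours, so the ranks are approximate (SD, n = 2). Of these neighbours Mir23a, Mir26a-2 and Mir218-1 share 20 bases or more with another hairpin, as do Mir19b-1 and Mir92-1. Reads within such runs may be missing from the counts, so the ranks are those of assigned counts.

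How much of each seed the cluster supplied was asked by adding up all genes of the table with a mature miRNA of that seed. The miR-17 seed AAAGUGC was held by 7 genes with 6.37% ± 0.860 of the miRNA counts (SD, n = 2). Mir17 and Mir20a supplied 68.6% of it in replicate 1 and 66.2% in replicate 2. Mir93 supplied 19.4% and 19.1%, and Mir106b 10.8% and 13.7%. Mir106a supplied 0.748% and 0.568%, Mir20b 0.482% and 0.368%, and Mir6383, whose mature miRNA also has this seed, had no count.

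The miR-18 seed AAGGUGC was held by 2 genes, and Mir18 supplied 99.1% and 99.4% of its counts in replicates 1 and 2. The miR-19 seed GUGCAAA was held by 3 genes with only 382 and 338 counts in all. Mir19a supplied 74.6% and 75.7% of these, Mir19b-1 20.7% and 20.1%, and Mir19b-2 the remaining 18 and 14 counts. Of the 3 genes, only Mir19a has a mature miRNA that occurs in no other annotated hairpin.

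The miR-92 seed AUUGCAC was the only class of the 4 in which the cluster did not supply most of the assigned counts. It was held by 7 genes with 0.587% ± 0.102 of the miRNA counts (SD, n = 2). Mir92-1 supplied 27.6% and 25.6% in replicates 1 and 2. Mir92b, a gene known from neural progenitors, supplied 51.7% and 54.1%, and Mir25 12.2% and 11.8%. Mir363 held 5.25% and 4.92%, Mir32 2.44% and 2.82%, and Mir92-2 0.878% and 0.777%. Mir367 had no count. Reads within the run shared by Mir92-1 and Mir92-2 may be missing from this sum, and their number was not tested. The order of Mir92b and Mir92-1 is thus that of assigned counts.

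**Figure D2:**
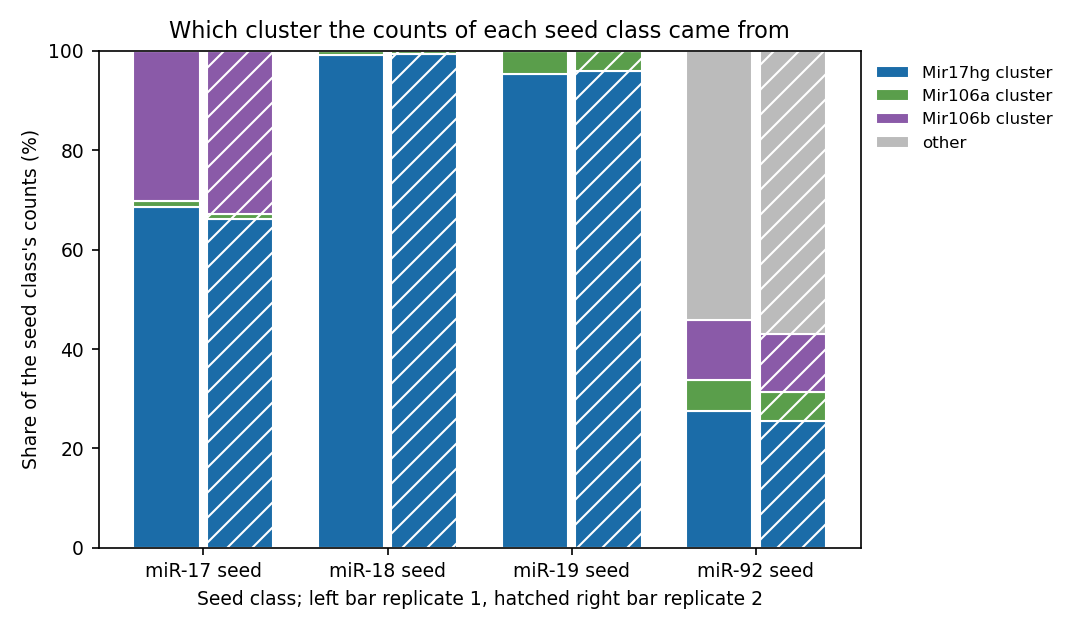
Share in percent of each seed class's counts that came from the Mir17hg cluster, the Mir106a and Mir106b clusters and other genes, with replicate 1 as the left bar and replicate 2 as the hatched right bar. By assigned counts the Mir17hg cluster holds 68.6% and 66.2% of the miR-17 class, nearly all of the miR-18 and miR-19 classes, and 27.6% and 25.6% of the miR-92 class. The miR-19 class has only 382 and 338 counts in replicates 1 and 2. Reads that match 2 loci may be missing from the miR-19 and miR-92 classes.

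The cluster has 2 paralogue clusters in the mouse genome that arose by duplication, Mir106a to Mir363 on the X chromosome and Mir106b, Mir93 and Mir25 in an intron of Mcm7 on chromosome 5. Their mature sequences show how close the genes of the miR-17 seed are.
miR-106a-5p: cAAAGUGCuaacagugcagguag
miR-20b-5p: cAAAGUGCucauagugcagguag
miR-93-5p: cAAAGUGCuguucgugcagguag
miR-106b-5p: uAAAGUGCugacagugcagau
miR-106a-5p differs from miR-17-5p by U10A alone, and miR-20b-5p differs from miR-20a-5p by U1C and U10C. The Mir106a cluster held 0.130% of the miRNA counts in replicate 1 and 0.0858% in replicate 2. The Mir106b cluster held 2.19% and 1.95%.

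At every position with a copy on the X chromosome, the Mir17hg member was the higher one in both libraries. Mir17 stood 67.6-fold and 86.1-fold above Mir106a in replicates 1 and 2, and Mir20a 37.5-fold and 47.2-fold above Mir20b. Mir18 stood 115-fold and 161-fold above Mir18b. Mir92-1 stood 31.4-fold and 33.0-fold above Mir92-2, and Mir19b-1 4.39-fold and 4.86-fold above Mir19b-2, 2 pairs whose mature miRNAs are the same. In these 2 pairs a read of the mature miRNA alone matches both loci. The folds may thus rest on longer reads or on other parts of the hairpins, and Mir19b-2 had only 18 and 14 counts.

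Against chromosome 5 the differences were smaller and not all in one direction. Mir17 stood 4.70-fold and 3.56-fold above Mir106b, and Mir92-1 2.26-fold and 2.17-fold above Mir25. Mir20a was below Mir93, which had 13566 and 11025 CPM, and their ranges overlapped. No miR-18 or miR-19 gene lies in the Mir106b cluster, so those positions could not be compared. Genes of 1 cluster share a transcript and are not independent, so these are descriptions of levels without a test.

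**Figure D3:**
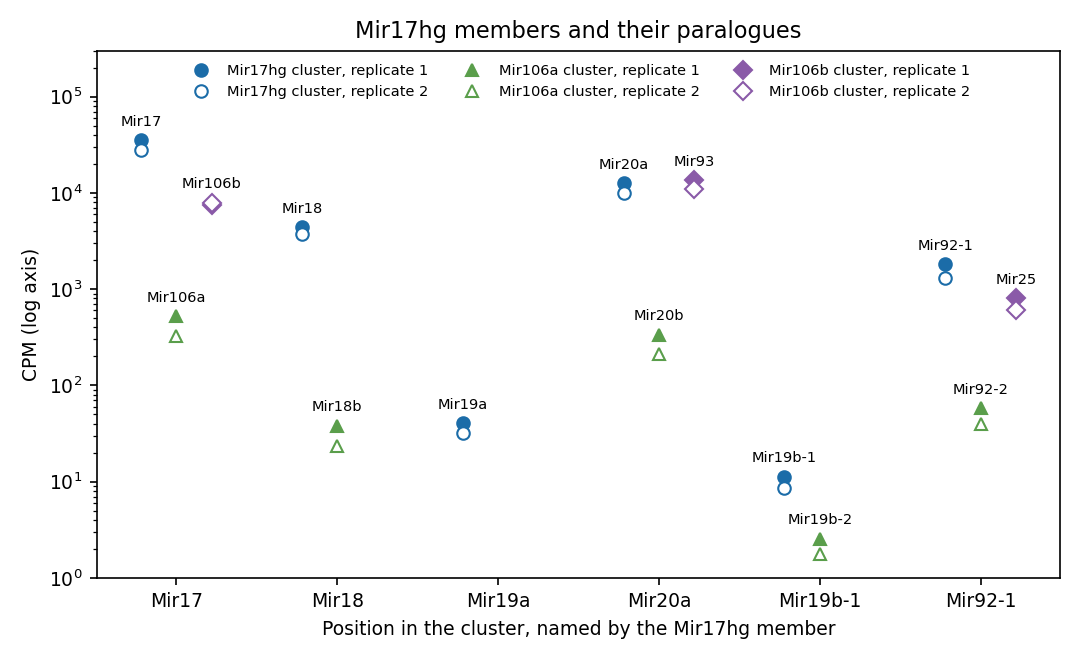
CPM on a log axis for the Mir17hg members (circles) and the genes at the same position in the Mir106a (triangles) and Mir106b (diamonds) clusters, filled for replicate 1 and open for replicate 2. Mir363, which has no partner in Mir17hg, is left out, and each X-linked copy lies below its Mir17hg partner.

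All 6 members had higher values in replicate 1 than in replicate 2, and 4 of them passed the test given below. Of the 399 genes with 10 or more counts in both libraries, 62.2% had higher values in replicate 1, and of the 84 genes at 1000 CPM or more in both, 63.1%. The summed level was 1.25-fold higher in replicate 1 (95% exact counting interval 1.24 to 1.26). By member the fold toward replicate 1 was 1.25 for Mir17, 1.17 for Mir18, 1.26 for Mir20a and 1.38 for Mir92-1. Mir19a was at 1.25 (interval 1.05 to 1.49) and Mir19b-1 at 1.30 (0.931 to 1.83). The members thus lay between 1.17-fold and 1.38-fold, and Mir18 and Mir92-1 differed from each other by more than counting error. Reads within the run that Mir92-1 shares with Mir92-2 may be missing from its counts. Their part in this difference was not tested.

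Fisher's exact test, two-sided, set each gene's counts against those of all other miRNA genes, and p-values were adjusted by Benjamini-Hochberg over the 1973 genes. It compares 2 libraries, not conditions, and covers counting error alone. Mir17, Mir18, Mir20a and Mir92-1 passed, 4 of the 6 members and all 4 higher in replicate 1. The test was passed by 9.02% of all genes, with replicate 1 the higher for 5.83% and replicate 2 for 3.19%. Of the 399 genes with 10 or more counts in both libraries 43.9% passed, 28.6% higher in replicate 1 and 15.3% in replicate 2. Of the 84 genes at 1000 CPM or more in both libraries, which include these 4 members, 92.9% passed, 60.7% higher in replicate 1 and 32.1% in replicate 2. A call is thus common at this depth. The adjusted p was 1.21e-78 for Mir18 and 3.48e-131 for Mir92-1, and for Mir17 and Mir20a it was too small for the computer's number format. Mir19a (Fisher's exact test, adjusted p = 0.101) and Mir19b-1 (adjusted p = 0.842) did not pass. No member differed by 2-fold or more, as 0.355% of all genes did among those that passed.

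The median log2 ratio of the members (replicate 2 over replicate 1) was -0.33, and that of the 399 genes was -0.09. Taken singly, the members lay between -0.46 (Mir92-1) and -0.22 (Mir18). The 5th to 95th percentiles of the 399 genes ran from -0.62 to 0.52, and those of the 84 genes at 1000 CPM or more from -0.46 to 0.24. All 6 members were inside the wider range, and of the 4 at 1000 CPM or more Mir92-1 was just below the 5th percentile of the narrower one. Of all genes that passed, 115 were higher in replicate 1 and 63 in replicate 2, and TMM factors moved this split to 88 and 79. Median-of-ratios factors moved it to 80 and 90 and moved all log2 ratios up by 0.11. All 6 members were still higher in replicate 1 with either scaling, and the summed fold was then 1.18 and 1.16. Each library has its own collection day, so day and library cannot be told apart.

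Of the 9 paralogues, 8 had higher values in replicate 1, as had 62.2% of the 399 genes. In all, 7 of the 9 passed the test with replicate 1 the higher, where 28.6% of the 399 genes and 5.83% of all 1973 genes did. The Mir106a cluster differed 1.52-fold in its sum (counting interval 1.47 to 1.57), more than the Mir17hg cluster. Mir106b was the exception, with 7506 and 7903 CPM and 1.05-fold more in the replicate 2 library (adjusted p = 4.10e-17, exact test as above). Its neighbours Mir93 and Mir25, in the same intron, were 1.23-fold and 1.32-fold higher in replicate 1. The sums of the cell type markers are given beside these differences. The 12 neuronal markers summed to 1.41% and 1.36% of the counts, with 6 of them higher in each library, the 3 progenitor markers to 0.404% and 0.335%, and the 4 choroid plexus and ciliated cell markers to 0.806% and 0.665%, in replicates 1 and 2. Erythroid markers summed to 0.0400% and 0.0537%, epithelial markers to 0.162% and 0.215%, and smooth muscle and stromal markers to 0.362% and 0.404%. In the last list only Mir143 was higher in replicate 2, at 3400 and 3825 CPM, and 2 markers were higher in replicate 1. Of the progenitor markers, 2 were higher in replicate 1 and 1 in replicate 2, and Mir92b held most of their sum. All 4 choroid plexus and ciliated cell markers were higher in replicate 1. The 2 erythroid markers were higher in replicate 2, as were 6 of the 7 epithelial markers. Leukocyte markers summed to 0.0186% and 0.0191%, with Mir142b at 0 and none of the 4 passing the test. The part of these in the members' difference was not tested.

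**Figure D4:**
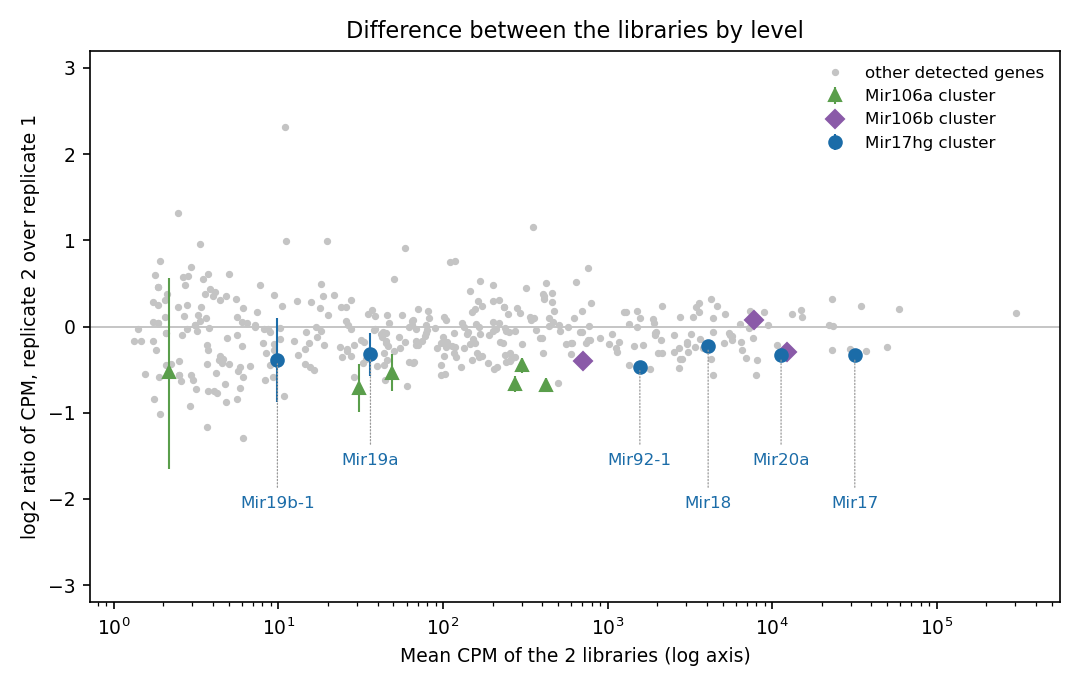
log2 ratio of CPM, replicate 2 over replicate 1, against the mean CPM on a log axis for the 399 genes with 10 or more counts in both libraries, with 95% exact counting intervals for the 3 clusters. The 6 Mir17hg members lie between -0.46 and -0.22, among the other genes.

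With 2 libraries the pattern of a gene is a single ratio, so likeness says little. Among the 182 genes at a mean of 100 CPM or more outside the 3 clusters, the 5 with the ratio nearest to the cluster's were Mir350, Mir669l, Mir300, Mir222 and Mir421. They were 1.23-fold to 1.26-fold higher in replicate 1, and 18 of the 182 genes lay within 0.05 log2 units of the cluster.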

How the data were processed

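Small RNA was sequenced in 2 forebrain libraries, and the authors deposited 1 table of raw read counts per library. Per the deposited README text, counts were made from 1 alignment file per library on mm10 with GENCODE annotation M4. The aligner and counter are not stated there. From their values, the columns were read as counts on either strand, the gene's strand and the opposite strand. Below them stand 4 totals of unassigned reads (61.9% and 61.5% of reads), which name no gene and entered neither library sizes nor tests. Counts on the gene's strand were scaled to CPM, and levels were also taken as log2(CPM + 1). One count was worth 0.141 and 0.126 CPM. Of 1973 gene IDs, 1894 matched GENCODE M21, used for names and positions. Fisher's exact test (scipy 1.17.1) with a threshold of 0.05 was tested on simulated counts of the 1973 genes. It recovered 99% of 200 genes changed 2-fold, each drawn from those with a summed count of 200 or more, and called 0 with none changed. The simulated libraries were Poisson draws from 1 pooled profile and so differed by counting error only. The 0 calls therefore do not carry over to real libraries, which also differ in other ways. Changes as small as those of the members were not simulated. Scaling alternatives used edgeR 4.0.16 and DESeq2 1.42.0, and folding used ViennaRNA 2.7.2. Named genes were the members, the 9 paralogues, genes of the same seeds, the next gene above and below each member, the 5 of the nearest ratio at 100 CPM or more, and the highest marker of a list. The members and lists were chosen with earlier results of these data known.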

Additional observations from a re-analysis of the deposited data

How the results depend on the processing

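No paired analysis was possible because the labels give 1 group. Of 58 alternative values, 49 stayed within the spread between the libraries, the counting interval or 1.5 times the count, 9 moved and 0 reversed. Among the 49 are the values from either library alone, which could not move, since each library always lies within the SD of the pair. The levels with TMM factors could hardly move either, since the 2 factors, 1.028 and 0.973, cancel in the mean of the log2 values. No member had a count on the opposite strand, so counts on either strand changed the totals alone. The number of values that stayed is thus not a measure of stability. A reversal was defined for the summed ratio only. The cluster's share of 4.87% became 6.96% with totals that leave out Mir99a, the miRNA gene with the most counts, 1.86% of all reads, and 1.70% without Mir17. The summed ratio of 0.800 (replicate 2 over replicate 1) became 0.845 with TMM factors, 0.864 with median-of-ratios factors, 0.840 with totals without Mir99a and 0.809 over all reads. On the log2 scale with a pseudocount of 10 CPM, Mir19a moved from 5.21 to 5.53 and Mir19b-1 from 3.43 to 4.31. From either library alone the share was 4.33% to 5.41%. Mir19a passed the test when only the 399 genes with 10 or more counts in both libraries were tested (Fisher's exact test, adjusted p = 0.0212; 0.0966 to 0.721 in the other alternatives), which made 5 members. When only these 399 genes were tested, 203 of them passed, 132 higher in replicate 1 and 71 in replicate 2. The division by hairpin length, the other shared-run lengths and the sum without Mir17 were chosen after seeing the data. Counts were lowest for Mir19b-1, at 79 and 68. Reads within the run it shares with Mir19b-2 may be missing from these, and their number was not tested.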
